A study of Homo sapiens with 24 samples.

Results

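RUNX1, RUNX2, BHLHE40, KLF10, SOX4, CITED2, TSC22D1, TSC22D3 and MEX3B were followed as regulators known to respond to transforming growth factor beta (TGF-beta), 9 of the 23284 rows of the expression table. The 9 genes were chosen by name, several of them for their response to TGF-beta in these same libraries. The rule does not say which comparison chose which gene, and the comparisons share libraries, so the values of the 9 genes are given as descriptions in every comparison, with no p-value. Where the genes called over the whole table are counted, the members among them are named beside the share of all genes called, and nothing is read from their number. Polyadenylated RNA was sequenced from 6 human lines labelled as hepatocellular carcinoma (HLE, SK-HEP1, HepG2, Huh1, Huh7 and Hep3b), grown in DMEM with serum. Each line gave 4 groups of 1 library: siSFPQ with TGF-beta (2 ng/ml for 24 hours), siSFPQ without TGF-beta, siCTL with TGF-beta and siCTL without TGF-beta. SiSFPQ is a small interfering RNA against SFPQ, a nuclear RNA-binding protein of paraspeckles, labelled as SFPQ knockdown cells, and siCTL is the control siRNA, labelled as wild type. The title of the study concerns SFPQ, SMAD4 and TGF-beta signalling, and the groups allow the response to TGF-beta to be compared with and without SFPQ. The 6 lines are the replicates of each group. The labels name no separate cultures within a line, no batch, no second siRNA and no rescue, so the spread is that between lines.

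TGF-beta binds a receptor pair of serine/threonine kinases, which phosphorylate SMAD2 and SMAD3. These join SMAD4, enter the nucleus and bind DNA beside other factors. RUNX1 and RUNX2 are runt-domain factors that bind DNA with CBFB and can act beside SMADs. BHLHE40 is a basic helix-loop-helix repressor of the circadian clock and belongs among the hypoxia-responsive genes. KLF10 is a Krüppel-like repressor first named as a TGF-beta-inducible early gene, and SOX4 is an HMG-box factor of the TGF-beta-driven epithelial to mesenchymal transition. CITED2 binds no DNA itself and competes with HIF1A for the coactivators CBP and p300. TSC22D1 was first found as a TGF-beta-stimulated gene, and its relative TSC22D3 (GILZ) is known as a glucocorticoid target. MEX3B is an RNA-binding KH-domain protein with a RING ubiquitin ligase domain, not a transcription factor.

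RefSeq promoter sequences (GRCh38.p14, another build than the hg19 of the deposited table) were searched on both strands for 5 short motifs in the 250 bases before each start. The motifs were the SMAD box CAGAC, the AP-1 site TGANTCA, the E-box CACGTG, the RUNX site TGTGGT and the cyclic AMP element TGACGTCA. The table held 18 starts of 8 members, and KLF10 is named only. A SMAD box lay at 5 starts of 4 members, against 38.0% of all 35116 promoters searched. An E-box lay at 3 starts of 3 members (6.34% of all), a RUNX site at 4 starts of 3 members (11.0%), an AP-1 site at 2 starts of 2 members (6.57%), and the cyclic AMP element at 0 (1.65%). Each motif overlapped no other in the sequences below, and a match describes letters, not a bound site. Shown, from 5′ to 3′ on the gene's strand and ending at the base before the start, are the promoters of the members with the largest mean increase with TGF-beta in siSFPQ cells (BHLHE40 and MEX3B) and of the RUNX pair, whose mean TGF-beta differences had opposite signs; capitals mark the motifs.
BHLHE40: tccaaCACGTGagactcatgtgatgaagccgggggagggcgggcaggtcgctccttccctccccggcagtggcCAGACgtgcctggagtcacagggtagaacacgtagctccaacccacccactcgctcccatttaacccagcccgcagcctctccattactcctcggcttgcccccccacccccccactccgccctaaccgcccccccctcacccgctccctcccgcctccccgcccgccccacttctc
MEX3B: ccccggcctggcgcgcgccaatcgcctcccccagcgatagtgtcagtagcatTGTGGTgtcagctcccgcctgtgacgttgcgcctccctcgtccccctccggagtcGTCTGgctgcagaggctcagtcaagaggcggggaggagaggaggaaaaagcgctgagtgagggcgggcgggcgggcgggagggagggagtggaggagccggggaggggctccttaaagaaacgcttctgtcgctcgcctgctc
RUNX1: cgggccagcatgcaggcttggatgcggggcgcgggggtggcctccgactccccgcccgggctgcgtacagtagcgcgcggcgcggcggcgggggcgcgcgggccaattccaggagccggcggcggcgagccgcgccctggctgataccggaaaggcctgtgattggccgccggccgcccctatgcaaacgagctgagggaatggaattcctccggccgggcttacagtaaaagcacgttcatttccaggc
RUNX2: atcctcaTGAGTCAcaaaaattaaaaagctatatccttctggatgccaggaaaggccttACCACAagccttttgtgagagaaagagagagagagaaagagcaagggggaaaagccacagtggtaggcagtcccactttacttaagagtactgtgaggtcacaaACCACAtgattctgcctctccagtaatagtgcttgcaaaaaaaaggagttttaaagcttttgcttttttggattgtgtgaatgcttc
The BHLHE40 sequence (chr3:4979187-4979436, plus strand) holds an E-box starting 245 bases and a SMAD box starting 177 bases before the start. BHLHE40 itself binds E-boxes of this kind. The MEX3B sequence (chr15:82046019-82046268, minus strand) holds a RUNX site at 198 and a SMAD box, read on the other strand, at 143 bases before the start. The RUNX1 sequence (chr21:34888700-34888949, minus strand), the only start searched for this gene, holds none of the 5 motifs. RefSeq lists 3 curated transcripts of RUNX1 over a span of 262 kb, so other starts of this gene may not have been searched. The RUNX2 sequence (chr6:45328080-45328329, plus strand), the first of 2 starts listed, holds RUNX sites at 191 and 87 and an AP-1 site at 243 bases before the start.

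SFPQ was checked first. It averaged 38.1 ± 10.4 FPKM in siSFPQ cells with TGF-beta and 37.2 ± 11.5 without, against 158 ± 59 and 165 ± 59.5 FPKM in siCTL cells with and without it (SD, n = 6 each). FPKM counts fragments relative to the length of a transcript and to the depth of its library. The SFPQ level left after knockdown ranged from 9.49% in HLE to 45.2% in HepG2 without TGF-beta, and from 10.7% in HLE to 44.8% in Huh1 with it. Estimated depth was 6110000 to 29900000 fragments per library with a median of 17200000. The shallowest libraries, both with siSFPQ, were treated Huh7 (6110000) and untreated HepG2 (6810000). One fragment on a 3 kb transcript was worth 0.0119 to 0.058 FPKM.

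The libraries labelled Hep3b stood against their label. Hep3b is known as a hepatocyte-like line that makes albumin and alpha-fetoprotein. In these 4 libraries ALB was 0.514 to 0.951 FPKM, 6 of 10 hepatocyte markers stayed under 1 FPKM (ALB, APOB, TTR and HNF4A among them), and AFP was 7.89 to 13.3 FPKM. The 10 hepatocyte markers summed to 6.75 to 11.9 FPKM in the libraries labelled Hep3b, 27.3 to 116 in HLE and 20.8 to 26.3 in SK-HEP1, each with HNF4A under 1 FPKM, against 1113 to 1809 in Huh1, 5079 to 7341 in Huh7 and 11972 to 15055 in HepG2. All 5 endothelial markers were under 1 FPKM in every library. Of 4 immune markers PTPRC and CD3E were under 1 FPKM in every library, while CD68 was 7.03 to 80.5 FPKM over the lines and LYZ was 307 to 588 FPKM in Huh7, 235 to 743 in HepG2 and 1.18 to 3.45 in the other 4 lines.

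Marker sums moved with TGF-beta too. The 6 stellate and fibroblast markers summed, in siSFPQ cells with TGF-beta and without it, to 239 and 101 FPKM in SK-HEP1, 200 and 31.4 in Huh7, 85.1 and 63.2 in Huh1, 61 and 43.8 in the libraries labelled Hep3b, 57.1 and 18.5 in HLE, and 40.4 and 24.7 in HepG2. In siCTL cells they summed with TGF-beta and without it to 147 and 85.2 FPKM in SK-HEP1, 74.6 and 26.9 in Huh7, 84.5 and 72.1 in Huh1, 64.9 and 56.2 in those labelled Hep3b, 32.7 and 21.2 in HLE, and 45.8 and 40.2 in HepG2. All 6 lines were thus higher with TGF-beta with either siRNA; between 1 and 3 of the 6 markers were under 1 FPKM in all libraries of a line, and COL1A1 is also among the structural TGF-beta targets below. The immune sum was lower with TGF-beta in siSFPQ cells of 6 of 6 lines, between 261 against 599 FPKM in HepG2 and 16.2 against 17.4 in the libraries labelled Hep3b. In siCTL cells it was higher with TGF-beta in Huh1 (61 against 56.9 FPKM) and in the libraries labelled Hep3b (19.5 against 18.6). There it was lower in HepG2 (377 against 772), Huh7 (314 against 599), HLE (37 against 55.9) and SK-HEP1 (14.7 against 19.6). The part of these markers in the members' responses was not tested. The mean changes below are given with and without the libraries labelled Hep3b.

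Levels of the 9 genes differed between lines. In untreated siCTL cells the mean FPKM, a level per transcript length, was 84.5 for CITED2, 50.8 for BHLHE40, 26.9 for KLF10, 22.9 for TSC22D1, 22.6 for SOX4, 17 for TSC22D3, 11.3 for RUNX1, 2.25 for MEX3B and 1.86 for RUNX2. Neighbours in this order overlapped over the 6 lines, except RUNX1 (5.98 to 17.3) and MEX3B (1.08 to 3.72). Among these untreated siCTL libraries RUNX1 was the most even gene, with its highest line 2.9 times its lowest. SOX4 was 62.9 FPKM in Huh1 and 1.47 in SK-HEP1, TSC22D3 was 71 in the library labelled Hep3b and 3.51 in Huh1, and CITED2 was 204 in HLE and 24 in the library labelled Hep3b. RUNX2 was at 1 FPKM or more in 10 of 24 libraries, MEX3B in 23, and the other 7 genes in all 24.

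**Figure D1:**
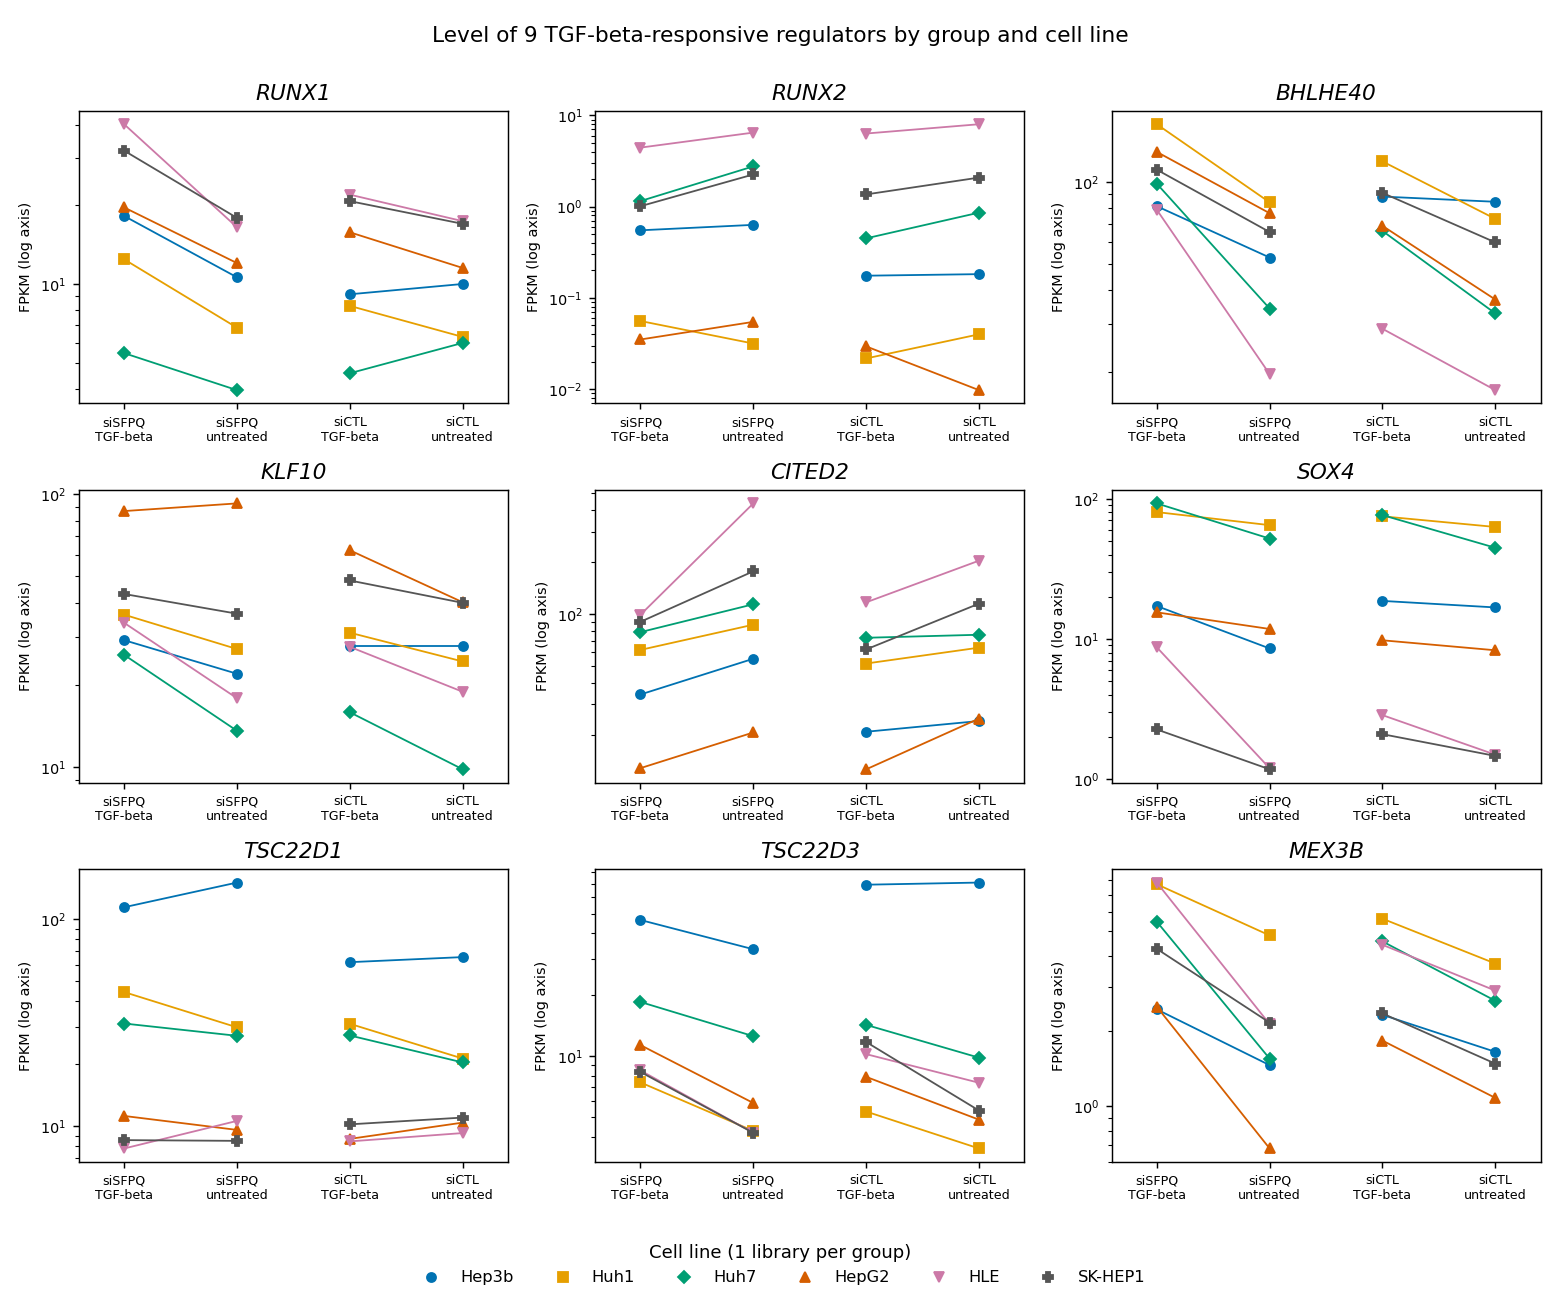
Level of each gene in FPKM on a log axis in the 4 groups, with 1 point per cell line and lines joining TGF-beta-treated and untreated libraries of the same siRNA. BHLHE40 and MEX3B slope the same way in every line in siSFPQ and in siCTL cells, while the lines stay apart by far more than the slopes for SOX4, TSC22D3 and RUNX2.

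Changes are given as differences of log2(FPKM + 1) within a line, as mean ± SD over the 6 lines, a scale that understates changes of low genes such as RUNX2 and MEX3B. In bulk RNA a change in the share of cells that express a gene and in the RNA per cell cannot be told apart. Because the siSFPQ and siCTL libraries enter several comparisons, those comparisons share samples. A call is an adjusted p under 0.05 in limma over all genes tested.

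RUNX1, a runt-domain factor, was higher with TGF-beta in siSFPQ cells of every line, and in siCTL cells of 4 of 6 lines. In siSFPQ cells it had a lowest, median and highest level of 5.47, 18.8 and 40.3 FPKM with TGF-beta, against 3.96, 11.3 and 17.8 FPKM without. The levels of the lines overlap between treatments, while each line went the same way. The change was 0.76 ± 0.28 and was higher in 6 of 6 lines, from 0.38 in Huh7 to 1.25 in HLE (0.77 ± 0.31, n = 5, without the libraries labelled Hep3b). In siCTL cells RUNX1 had 4.59, 12.4 and 21.8 FPKM with TGF-beta, against 5.98, 10.8 and 17.3 FPKM without. There the change was 0.15 ± 0.30: higher in 4 lines by 0.27 to 0.41, and lower in Huh7 (-0.32) and in the libraries labelled Hep3b (-0.12). Without those libraries it was 0.20 ± 0.30 (n = 5). The response in siSFPQ cells exceeded that in siCTL cells in 6 of 6 lines, by 0.93 in HLE, 0.84 in the libraries labelled Hep3b, 0.70 in Huh7, 0.54 in SK-HEP1, 0.43 in Huh1 and 0.24 in HepG2. This difference of responses averaged 0.61 ± 0.26 (0.57 ± 0.26, n = 5, without the libraries labelled Hep3b).

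RUNX2, the relative of RUNX1 known from bone, was a low gene that went the other way. Its highest line was HLE in every group, with 4.43 FPKM in siSFPQ cells with TGF-beta and 6.47 without, against 6.32 in siCTL cells with TGF-beta and 7.99 without. Huh7 held 1.15 FPKM with TGF-beta and 2.76 without in siSFPQ cells, and SK-HEP1 held 1.01 and 2.25. Huh1 and HepG2 held at most 0.0558 FPKM in any library, no more than 1 fragment on a 3 kb transcript was worth in the shallowest library. The TGF-beta change was -0.34 ± 0.36 in siSFPQ cells and -0.17 ± 0.19 in siCTL cells, lower in 5 of 6 lines in each (-0.39 ± 0.38 and -0.21 ± 0.19, n = 5, without the libraries labelled Hep3b). Some of the lower lines were so by very little. The libraries labelled Hep3b, at 0.175 to 0.631 FPKM, changed by -0.07 in siSFPQ cells and -0.01 in siCTL cells. HepG2 changed by -0.03 in siSFPQ cells and Huh1 by -0.03 in siCTL cells. In Huh7, HLE and SK-HEP1, the lines with RUNX2 near or above 1 FPKM, the TGF-beta change was -0.81, -0.46 and -0.69 in siSFPQ cells and -0.36, -0.30 and -0.39 in siCTL cells. SUPT3H, a coding gene on the opposite strand that overlaps RUNX2, was at 0.288 to 7.82 FPKM. The overlap is that of the whole gene spans, and overlap of exons was not examined. The strandedness of the libraries is not given in the sources used here. Whether reads of SUPT3H entered the RUNX2 values is therefore not known.

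BHLHE40, the clock repressor, was higher with TGF-beta in every line with either siRNA. In siSFPQ cells it had a lowest, median and highest level of 79.1, 105 and 163 FPKM with TGF-beta, against 19.7, 59.1 and 84.2 FPKM without. All treated siSFPQ libraries but 2 lay above the highest untreated one. The change was 1.09 ± 0.53 (1.18 ± 0.53, n = 5, without the libraries labelled Hep3b), from 0.62 in those libraries to 1.95 in HLE. In siCTL cells the levels were 28.9, 78.7 and 119 FPKM with TGF-beta, against 17.2, 48.5 and 84.6 FPKM without. That change was 0.66 ± 0.32, with 0.98 in Huh7, 0.88 in HepG2, 0.71 in HLE, 0.70 in Huh1, 0.60 in SK-HEP1 and only 0.06 in the libraries labelled Hep3b; without those it was 0.77 ± 0.16. The siSFPQ response exceeded the siCTL response in 5 of 6 lines, by 0.43 ± 0.47 on average, with HLE at 1.24 and HepG2 at -0.14 (0.40 ± 0.52, n = 5, without the libraries labelled Hep3b).

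KLF10, the TGF-beta-inducible early gene, was higher with TGF-beta in 5 of 6 lines in siSFPQ cells and by 0.27 to 0.64 in all siCTL lines but the one labelled Hep3b. It had 25.8, 35 and 86.7 FPKM as lowest, median and highest level in siSFPQ cells with TGF-beta, against 13.6, 24.6 and 92.5 FPKM without. In siCTL cells it had 15.9, 29.5 and 62.3 FPKM with TGF-beta, against 9.83, 26.1 and 40.2 FPKM without. The groups overlap, and HepG2 was the highest line in every group. The TGF-beta change was 0.45 ± 0.38 in siSFPQ cells and 0.40 ± 0.25 in siCTL cells, where the difference in the libraries labelled Hep3b was 0.00. Without those libraries it was 0.46 ± 0.42 and 0.48 ± 0.17 (n = 5). HepG2 was the line that departed: 86.7 FPKM with TGF-beta and 92.5 without in siSFPQ cells, against 62.3 with and 40.2 without in siCTL cells. The difference of responses was 0.05 ± 0.41 and had no common direction, from -0.71 in HepG2 to 0.39 in the libraries labelled Hep3b (-0.02 ± 0.42, n = 5, without them).

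SOX4, the HMG-box factor, was higher with TGF-beta in all 6 lines with either siRNA, from very different starting levels. In siSFPQ cells it was 92.6 FPKM with TGF-beta and 52 without in Huh7, 80.3 and 64.8 in Huh1, 17.2 and 8.57 in the libraries labelled Hep3b, 15.5 and 11.8 in HepG2, 8.74 and 1.2 in HLE, and 2.27 and 1.18 in SK-HEP1. In siCTL cells it was 76.4 with TGF-beta and 44.7 FPKM without in Huh7, 74.9 and 62.9 in Huh1, 18.7 and 16.8 in those labelled Hep3b, 9.8 and 8.32 in HepG2, 2.87 and 1.5 in HLE, and 2.1 and 1.47 in SK-HEP1. The order of the lines was nearly kept, and the groups overlap across lines. The change was 0.86 ± 0.68 in siSFPQ cells and 0.39 ± 0.25 in siCTL cells (0.84 ± 0.76 and 0.44 ± 0.24, n = 5, without the libraries labelled Hep3b). HLE alone reached 2.14 in siSFPQ cells, against 0.63 in siCTL cells. The difference of responses was above 0 in 6 of 6 lines, but in 4 of them by 0.06 to 0.26, with 0.78 in the libraries labelled Hep3b and 1.52 in HLE. It averaged 0.47 ± 0.58, and 0.41 ± 0.62 (n = 5) without the libraries labelled Hep3b.

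CITED2, the competitor of HIF1A for CBP and p300, was lower with TGF-beta in all 6 lines with either siRNA. In siSFPQ cells it had a lowest, median and highest level of 12.8, 70.3 and 99.1 FPKM with TGF-beta, against 20.6, 100 and 438 FPKM without. The change was -0.90 ± 0.62, with HLE at -2.13 and the other 5 lines between -0.96 and -0.48. In siCTL cells it had 12.6, 57 and 117 FPKM with TGF-beta, against 24, 69.9 and 204 FPKM without. There the change was -0.52 ± 0.38, from -0.92 in HepG2 to -0.06 in Huh7. The response in siSFPQ cells lay below that in siCTL cells in 5 of 6 lines, by -0.38 ± 0.54 on average, and above it in HepG2 (0.27). Without the libraries labelled Hep3b the changes were -0.95 ± 0.69 in siSFPQ cells and -0.59 ± 0.38 in siCTL cells, and the difference of responses was -0.36 ± 0.60 (n = 5).

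TSC22D3, a leucine-zipper protein, was higher with TGF-beta in siSFPQ cells of every line. It had 7.41, 9.87 and 46.5 FPKM as lowest, median and highest level in siSFPQ cells with TGF-beta, against 4.19, 5.07 and 33.4 FPKM without. Leaving aside the libraries labelled Hep3b, which were highest in every group (33.4 to 71 FPKM), all treated siSFPQ lines lay above 7 FPKM and all untreated ones but Huh7 below it. Its change in siSFPQ cells was the most even of the 9 genes, 0.70 ± 0.18, from 0.46 to 0.87, and higher in 6 of 6 lines (0.75 ± 0.15, n = 5, without the libraries labelled Hep3b). In siCTL cells it had 5.33, 11 and 69.3 FPKM with TGF-beta, against 3.51, 6.39 and 71 FPKM without, a change of 0.49 ± 0.33 that was higher in 5 lines and -0.03 in the libraries labelled Hep3b (0.60 ± 0.23, n = 5, without them). The difference of responses was 0.21 ± 0.25, above 0 in 5 of 6 lines, and 0.15 ± 0.23 (n = 5) without those libraries.

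TSC22D1, a member of the same leucine-zipper family, had no common direction over the lines. It had 7.8, 21.3 and 114 FPKM in siSFPQ cells with TGF-beta, against 8.49, 19 and 150 FPKM without, and 8.44, 18.8 and 61.9 FPKM in siCTL cells with TGF-beta, against 9.26, 15.6 and 65.5 FPKM without. The change was 0.03 ± 0.37 in siSFPQ cells and 0.07 ± 0.32 in siCTL cells (0.11 ± 0.34 and 0.10 ± 0.35, n = 5, without the libraries labelled Hep3b). Huh1 (0.55 and 0.54) and Huh7 (0.19 and 0.42) were higher with both siRNAs, while HLE (-0.40 and -0.12) and the libraries labelled Hep3b (-0.39 and -0.08) were lower with both. TSC22D1-AS1, an antisense RNA whose gene span overlaps it, was at 0.684 to 3.86 FPKM. Whether its reads entered the TSC22D1 values is not known.

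MEX3B, the RNA-binding ubiquitin ligase, was a low gene with an even response in siCTL cells. In siSFPQ cells it was 7.84 FPKM with TGF-beta and 2.13 without in HLE, 7.72 and 4.82 in Huh1, 5.47 and 1.55 in Huh7, 4.26 and 2.16 in SK-HEP1, 2.5 and 0.678 in HepG2, and 2.44 and 1.46 in the libraries labelled Hep3b. In siCTL cells it was 4.42 with TGF-beta and 2.9 FPKM without in HLE, 5.62 and 3.72 in Huh1, 4.56 and 2.64 in Huh7, 2.35 and 1.48 in SK-HEP1, 1.83 and 1.08 in HepG2, and 2.32 and 1.65 in those labelled Hep3b. Every line was higher with TGF-beta, and the groups overlap across lines. The change was 0.95 ± 0.42 in siSFPQ cells and 0.46 ± 0.09 in siCTL cells, the smallest spread of any member and comparison. The difference of responses was 0.49 ± 0.36 and above 0 in 6 of 6 lines, from 0.09 in Huh1 to 1.02 in HLE. Without the libraries labelled Hep3b the changes were 1.04 ± 0.39 in siSFPQ cells and 0.49 ± 0.07 in siCTL cells, and the difference of responses 0.56 ± 0.36 (n = 5).

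**Figure D2:**
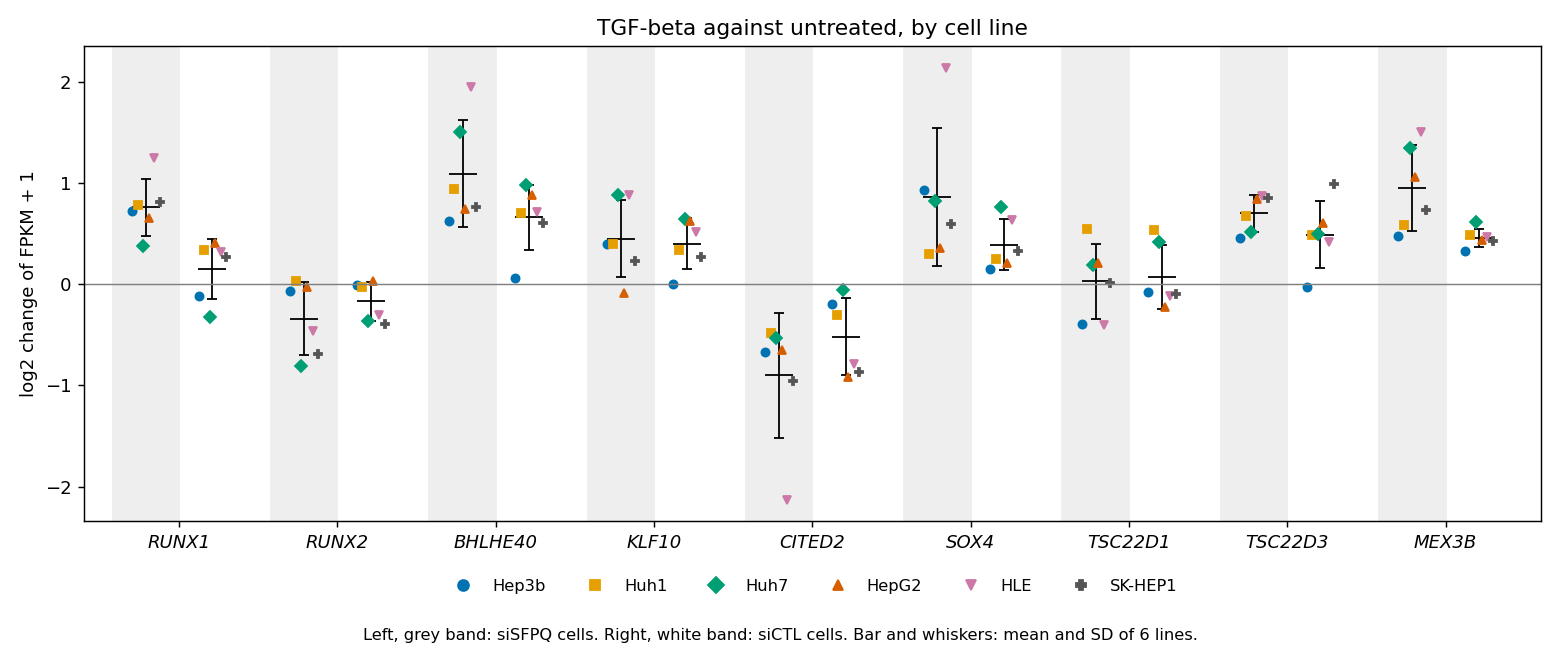
Change of log2(FPKM + 1) with TGF-beta against untreated for each gene, 1 point per cell line, in siSFPQ cells (left, grey band) and siCTL cells (right, white band), with mean and SD of 6 lines. HLE is the farthest point for CITED2 (-2.13) and SOX4 (2.14) in siSFPQ cells, and MEX3B in siCTL cells has the tightest points (SD 0.09).

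The members among the genes called are given beside the share of all genes called. In siCTL cells MEX3B was the 1 member called of 8 tested, higher; of 12166 genes, 0.0658% were called higher and 0.0329% lower. Without Huh1, Huh7, HepG2, HLE or SK-HEP1 no member was called, and without the libraries labelled Hep3b BHLHE40 and MEX3B were. In siSFPQ cells RUNX1, BHLHE40, TSC22D3 and MEX3B were called higher and CITED2 lower, of 9 tested; of 11886 genes, 2.25% were called higher and 2.88% lower (268 and 342 genes, against 294 and 101 with the libraries scaled to a common median ratio). Leaving out a line also lowered the number of all genes called higher there, to 29 without Huh1, 35 without HLE, 43 without HepG2 and 83 without Huh7. TSC22D3 alone was called without Huh1, RUNX1 and TSC22D3 without HepG2, and RUNX1, TSC22D3 and MEX3B without Huh7. MEX3B was not called without HLE. The CITED2 call was kept without HLE and lost without each of the other 5 lines. It was also lost with no filter on low values, after that scaling, at pseudocount 5 and without trend and robust shrinkage. For the difference of responses RUNX1 was the 1 member called of 9 tested; of 13496 genes, 0.222% had a higher and 0.0296% a lower response in siSFPQ cells. That call was kept without HepG2 and lost without each of the other 5 lines. The median change over the members tested was 0.70 in siSFPQ cells, 0.39 in siCTL cells and 0.21 for the difference of responses, beside -0.06, -0.03 and -0.03 over all genes tested. Several members were chosen for their response in these libraries, so nothing is read from the gap to all genes.

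**Figure D3:**
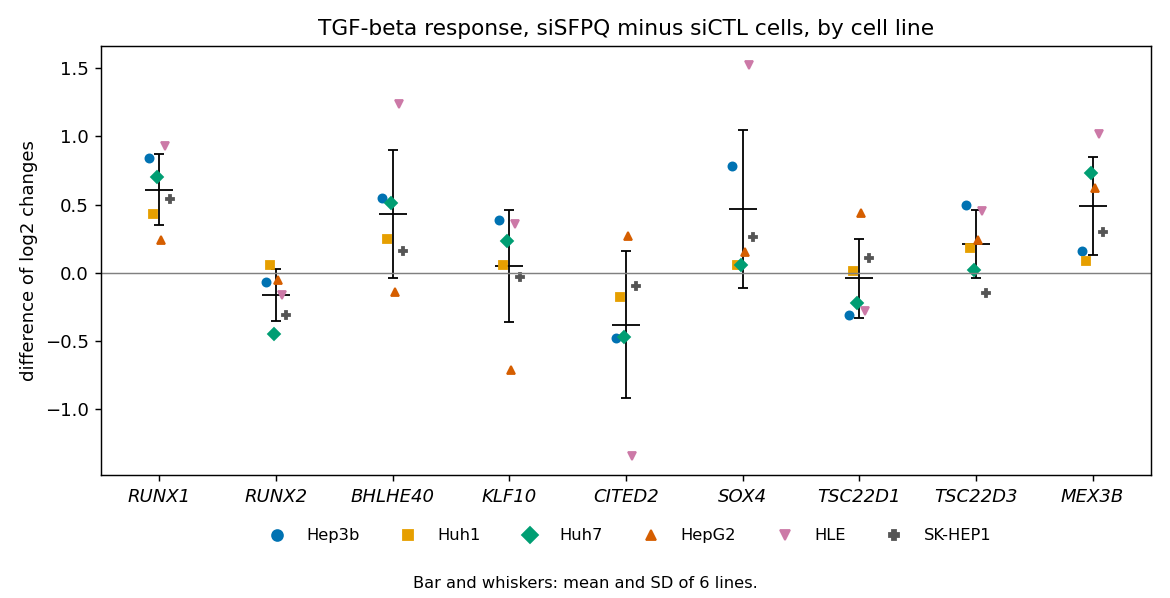
Difference of the TGF-beta change, siSFPQ minus siCTL cells, for each gene with 1 point per cell line and the mean and SD of 6 lines. All 6 points lie above 0 for RUNX1, SOX4 and MEX3B, and those of KLF10 and TSC22D1 spread on both sides of 0.

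Knockdown of SFPQ without TGF-beta, siSFPQ against siCTL cells, uses the libraries that are the untreated sides of both TGF-beta responses, so it too holds values that chose the members. CITED2 was higher with siSFPQ in 5 of 6 lines. It was 438 FPKM in siSFPQ cells and 204 in siCTL cells in HLE, 177 and 115 in SK-HEP1, 114 and 75.9 in Huh7, 86.8 and 63.9 in Huh1, 55.1 and 24 in the libraries labelled Hep3b, and 20.6 and 24.8 in HepG2. HepG2 alone was lower, and the ranges of the groups overlap. The difference was 0.61 ± 0.52, and 0.50 ± 0.49 (n = 5) without the libraries labelled Hep3b. The untreated siSFPQ levels are also those from which CITED2 was lower with TGF-beta, so a high untreated level enters both values.

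The other 8 members had means nearer to 0 and lines on both sides of it. The difference was 0.30 ± 0.53 for TSC22D1, 0.22 ± 0.45 for RUNX2, 0.21 ± 0.54 for KLF10, 0.15 ± 0.54 for BHLHE40, -0.21 ± 0.57 for TSC22D3, -0.10 ± 0.35 for MEX3B, -0.09 ± 0.46 for SOX4 and -0.04 ± 0.23 for RUNX1, or 0.03 for RUNX1 with the libraries scaled to a common median ratio. Single lines lay far from these means: in the libraries labelled Hep3b the difference was -1.06 for TSC22D3, -0.89 for SOX4, -0.67 for BHLHE40 and 1.18 for TSC22D1. HepG2 was higher by 1.18 for KLF10 and 1.04 for BHLHE40. Without the libraries labelled Hep3b the means (n = 5) were -0.04 for TSC22D3, 0.07 for SOX4, 0.32 for BHLHE40, 0.13 for TSC22D1, 0.18 for RUNX2, 0.31 for KLF10, -0.10 for MEX3B and -0.07 for RUNX1. Of the 12013 genes tested, 6.69% were called higher and 15.0% lower (804 and 1804 genes, against 1171 and 1370 with the libraries scaled to a common median ratio). CITED2 was the 1 member called higher of 8 that passed the filter on low values, which RUNX2 did not. It was not called without HLE, Huh7, SK-HEP1 or the libraries labelled Hep3b. The median of the 8 was 0.06, beside -0.07 over all genes, and nothing is read from this gap.

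With TGF-beta present, siSFPQ cells had more RUNX1 and MEX3B than siCTL cells in all 6 lines. This comparison is the knockdown without TGF-beta plus the difference of responses, so it rests on the same values. RUNX1 was 40.3 FPKM in siSFPQ cells and 21.8 in siCTL cells in HLE, 32 and 20.6 in SK-HEP1, 19.5 and 15.7 in HepG2, 18.1 and 9.14 in the libraries labelled Hep3b, 12.4 and 8.26 in Huh1, and 5.47 and 4.59 in Huh7. All lines were higher with siSFPQ, and the ranges overlap. The mean difference was 0.57 ± 0.29 for RUNX1, 0.58 ± 0.53 for BHLHE40 (higher in 5 of 6 lines), 0.39 ± 0.25 for MEX3B, 0.38 ± 0.53 for SOX4 (5 of 6), 0.26 ± 0.29 for KLF10 (5 of 6), 0.26 ± 0.40 for TSC22D1 (4 of 6) and 0.23 ± 0.34 for CITED2 (5 of 6). It was 0.06 ± 0.37 for RUNX2 and -0.01 ± 0.46 for TSC22D3, or 0.10 for TSC22D3 with the libraries scaled to a common median ratio. RUNX1, BHLHE40 and MEX3B were the members called higher, of 8 that passed the filter; of 12023 genes, 8.47% were called higher and 21.8% lower (1018 and 2621 genes, against 1579 and 1714 after that scaling). Of the 3, RUNX1 alone was called without Huh1 or without HepG2, RUNX1 and MEX3B without Huh7, and RUNX1 and BHLHE40 without HLE or without SK-HEP1. Without the libraries labelled Hep3b the mean differences (n = 5) were 0.50 for RUNX1, 0.72 for BHLHE40, 0.46 for MEX3B, 0.48 for SOX4, 0.29 for KLF10, 0.14 for TSC22D1, 0.13 for CITED2, -0.01 for RUNX2 and 0.11 for TSC22D3.

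**Figure D4:**
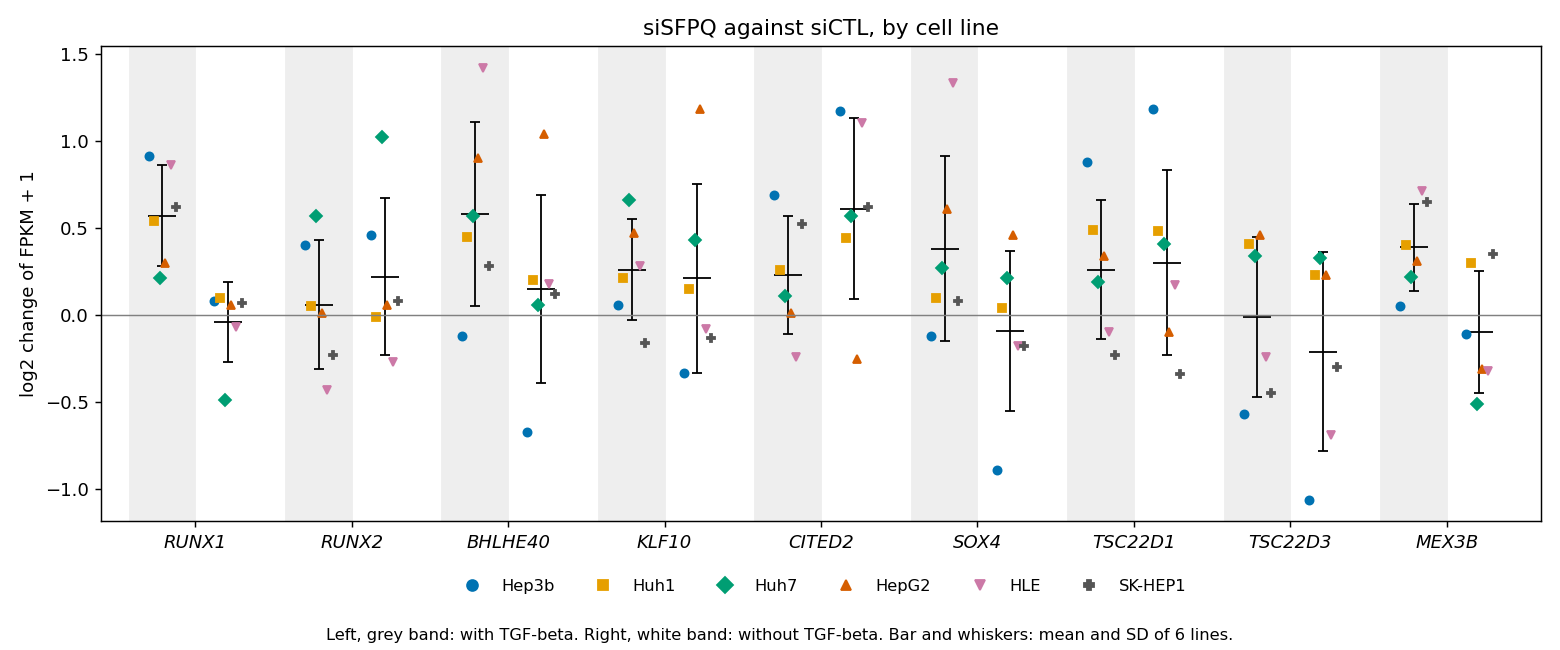
Change of log2(FPKM + 1) in siSFPQ against siCTL cells for each gene, 1 point per cell line, with TGF-beta (left, grey band) and without it (right, white band), with mean and SD of 6 lines. RUNX1 and MEX3B lie above 0 in all lines with TGF-beta (means 0.57 and 0.39) and on both sides of 0 without it, and the libraries labelled Hep3b lie lowest for BHLHE40, SOX4 and TSC22D3 in both.

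Within lines, BHLHE40, SOX4, KLF10, MEX3B, TSC22D3 and RUNX1 were all positively correlated with each other. Pearson's r of log2(FPKM + 1) centred within line over the 24 libraries was 0.92 for BHLHE40 with SOX4, 0.88 with KLF10, 0.85 with MEX3B, 0.71 with RUNX1 and 0.70 with TSC22D3. TSC22D3 had 0.68 with KLF10, 0.67 with SOX4, 0.63 with MEX3B and 0.42 with RUNX1, and RUNX1 had 0.79 with MEX3B, 0.65 with SOX4 and 0.48 with KLF10. CITED2 ran opposite to TSC22D3 (-0.81), SOX4 (-0.73), BHLHE40 (-0.63) and MEX3B (-0.63). TSC22D1 had |r| of at most 0.41 with every other member, the highest with CITED2. The libraries share lines, treatment and depth, so these values describe the 24 libraries.

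**Figure D5:**
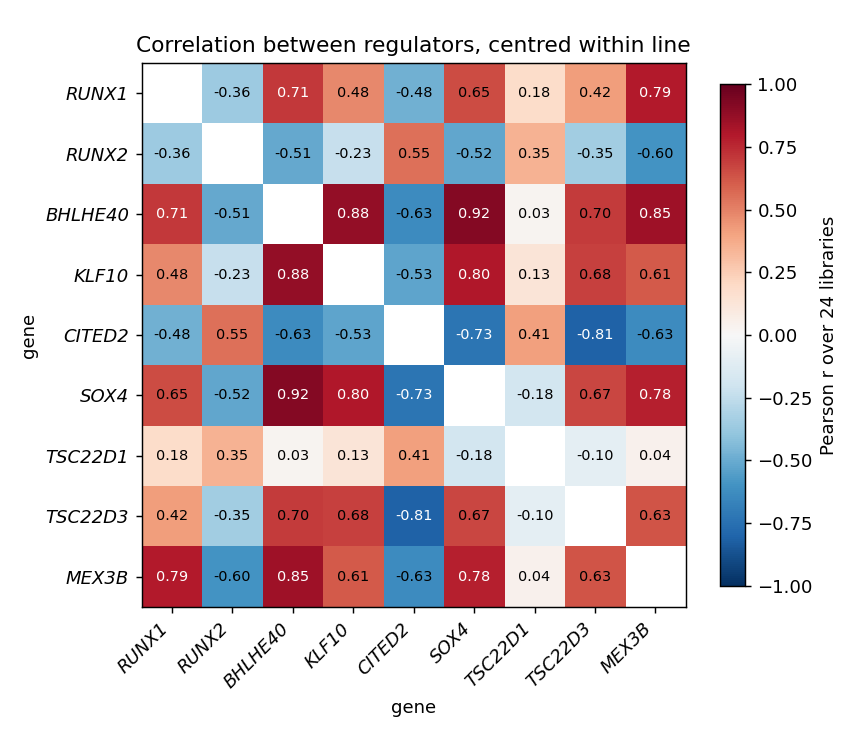
Pearson's r between each pair of genes over 24 libraries after centring log2(FPKM + 1) within line, from -1 (blue) to 1 (red). BHLHE40, KLF10, SOX4, MEX3B, TSC22D3 and RUNX1 are red against each other, with r from 0.42 to 0.92, and CITED2 is blue against all of them.

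Among the 9987 genes whose log2(FPKM + 1) averaged 2 or more, those with the pattern most like each member over the same 24 libraries were listed, as a description. For BHLHE40 they were SPSB1 (r = 0.946), PPP1R13L (0.944) and PDLIM7 (0.943). MEX3B was nearest to C1orf106 (0.938), ZSWIM4 (0.92) and TAB2 (0.916), and SOX4 to AMIGO2 (0.921), BHLHE40 (0.916) and TGFBI (0.896), the last a matrix protein named for its induction by TGF-beta. KLF10 was nearest to BHLHE40 (0.879), FILIP1L (0.854) and the cytokine IL11 (0.851). RUNX1 followed PSMD2 (0.882), the integrin ITGA5 (0.856) and HSPA12A (0.853). TSC22D3 followed MKL1 (0.849) and ARHGAP32 (0.847). CITED2 followed MRS2 (0.886), TRIM25 (0.877) and ATP8B1 (0.858), RUNX2 followed MTMR10 (0.856) and IGSF8 (0.836), and TSC22D1 followed CASD1 (0.861), AMOTL2 (0.785) and FNDC3A (0.782).

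The lists that follow were put together with earlier results of these data known, so their directions are not independent evidence. Their counts stand beside these shares of all genes called higher and lower. With TGF-beta they were 0.0658% and 0.0329% in siCTL cells, and 2.25% and 2.88% in siSFPQ cells. The knockdown gave 6.69% and 15.0% without TGF-beta and 8.47% and 21.8% with it, and the difference of responses 0.222% and 0.0296%. Relatives and partners of the members were compared as a list of 16 genes, of which 12 were tested. In siSFPQ cells 2 rose with TGF-beta and 0 fell: the RUNX partner CBFB (0.29, SE 0.06, adjusted p = 0.0445 in limma) and MEX3D (0.45, SE 0.08, adjusted p = 0.034 in limma). The CBFB call was lost whichever of the 6 lines was left out, and that of MEX3D was kept without HepG2 and without the libraries labelled Hep3b. Over all genes, 268 were called higher in this comparison, against 29 without Huh1 and 211 without the libraries labelled Hep3b. A call lost in this way, here and below, is therefore not read as dependence on the line left out. In siCTL cells limma called 0 of 12, of which 2 had an unadjusted p under 0.05, beside 1910 of all 12166 genes tested. In the knockdown without TGF-beta the KLF10 relative KLF11 rose (0.50, SE 0.10, adjusted p = 0.0121 in limma), also without each line in turn, and MEX3A fell (-0.42, SE 0.13, adjusted p = 0.0404 in limma), a call kept only without SK-HEP1. The list's median was 0.19 in siSFPQ cells with TGF-beta and 0.07 in the knockdown without it, beside -0.06 and -0.07 over all genes.

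Other TGF-beta-responsive regulators were a list of 30. In siSFPQ cells 5 rose and 1 fell with TGF-beta of 29 tested, at a median of 0.16 beside -0.06 over all genes, of which 2.25% were called higher and 2.88% lower. Among them were the SMAD corepressor SKIL at 1.65 (SE 0.26, adjusted p = 0.0284 in limma) and the AP-1 subunits FOSB at 0.65 (SE 0.11, adjusted p = 0.031 in limma) and JUNB at 1.65 (SE 0.31, adjusted p = 0.034 in limma). The count of 6 was 5 without the libraries labelled Hep3b, 2 without Huh7, 1 without HLE or SK-HEP1, and 0 without Huh1 or HepG2. In siCTL cells limma called 0 of 27, of which 12 had an unadjusted p under 0.05, beside 1910 of all 12166 genes tested. In the knockdown without TGF-beta 8 rose and 1 fell of 28, at a median of 0.07 beside -0.07 over all genes (6.69% called higher and 15.0% lower), and 5 to 8 were called when a line was left out. KLF6 (0.67, SE 0.14, adjusted p = 0.0118 in limma), KLF11, ID1 (0.36, SE 0.08, adjusted p = 0.0136 in limma) and MYC (0.63, SE 0.14, adjusted p = 0.0147 in limma) led it. With TGF-beta present 12 were higher and 1 lower of 28 after knockdown, at a median of 0.32 beside -0.09. SKIL (0.60) and CEBPB (0.74) had a called difference of responses of 30 tested, a call that SKIL kept only without Huh7 and CEBPB only without HepG2.

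Among 18 TGF-beta receptors, SMADs and their regulators, TGFBR2 (0.56, SE 0.10, adjusted p = 0.00753 in limma) and TGFBR1 (0.40, SE 0.12, adjusted p = 0.0441 in limma) rose in the knockdown without TGF-beta and 0 fell of 17 tested. TGFBR2 was called without each line in turn, and TGFBR1 only without Huh7. In siSFPQ cells 3 rose and 1 fell with TGF-beta of 17 (0 to 3 called with a line left out). In siCTL cells limma called 0 of 16, of which 6 had an unadjusted p under 0.05, beside 1910 of all 12166 genes tested. Of the structural and secreted TGF-beta targets 16 of 21 rose and 0 fell in siSFPQ cells, at a median of 1.36 beside -0.06 over all genes (2.25% called higher), and 4 of 21 rose in siCTL cells, at a median of 0.86 beside -0.03 (0.0658% called higher). The 16 became 15 without the libraries labelled Hep3b, 11 without Huh7, 8 without SK-HEP1, 5 without Huh1 or HLE, and 4 without HepG2. The integrin ITGA5 rose by 1.09 (SE 0.11, adjusted p = 0.00935 in limma) and the tropomyosin TPM4 by 0.53 (SE 0.06, adjusted p = 0.01 in limma) in siSFPQ cells, and both were called without each line in turn. The cytoskeletal gene TAGLN was higher in siCTL cells by 1.39 (SE 0.12, adjusted p = 0.0156 in limma). The 4 called in siCTL cells became 5 without the libraries labelled Hep3b, 1 without Huh7 or SK-HEP1 and 0 without Huh1, HepG2 or HLE. In the knockdown without TGF-beta 3 of 20 rose (0 to 5 with a line left out), and with TGF-beta 11 of 21 rose. ANGPTL4 (0.99) had the 1 called difference of responses of 21, a call lost without the libraries labelled Hep3b, Huh1 or HLE.

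The remaining lists follow the other known roles of TSC22D3, CITED2 and BHLHE40. Of 14 glucocorticoid- and FOXO-responsive genes, the company of TSC22D3, 13 were tested, and 4 rose and 0 fell in the knockdown without TGF-beta. The list's median was 0.45, beside -0.07 over all genes, while the mean difference of TSC22D3 itself was -0.21 ± 0.57. DUSP1, a MAP kinase phosphatase, rose by 1.20 (SE 0.18, adjusted p = 0.00433 in limma), TXNIP, an inhibitor of thioredoxin, by 0.78 (SE 0.14, adjusted p = 0.00828 in limma), and ZFP36, which destabilises AU-rich mRNAs, by 0.86 (SE 0.18, adjusted p = 0.0132 in limma). These 3 genes were called without each line in turn. With TGF-beta 1 of the 13, PIK3IP1, rose in siSFPQ cells (1.12, SE 0.24, adjusted p = 0.0412 in limma), a call kept only without the libraries labelled Hep3b.

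Of 15 hypoxia-responsive genes, which CITED2 restrains and BHLHE40 belongs among, 1 rose and 2 fell in the knockdown without TGF-beta, at a median of -0.15. Over all genes the median was -0.07, with 6.69% called higher and 15.0% lower, and nothing is read from this count. VEGFA, the angiogenic growth factor, fell (-0.63, SE 0.15, adjusted p = 0.019 in limma), a call lost without HLE or SK-HEP1, and the histone demethylase KDM3A rose (0.39, SE 0.11, adjusted p = 0.0303 in limma), a call lost without Huh1, HLE or SK-HEP1. With TGF-beta 3 of 15 rose in siSFPQ cells, at a median of 0.17, and 0 were called without Huh1, HepG2, HLE or SK-HEP1. In siCTL cells limma called 0 of 15, of which 5 had an unadjusted p under 0.05, beside 1910 of all 12166 genes tested.

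Of 15 circadian clock genes, where BHLHE40 acts as a repressor, 13 were tested in the knockdown without TGF-beta, and 2 rose and 2 fell, at a median of -0.02. Over all genes the median was -0.07, with 6.69% called higher and 15.0% lower, and nothing is read from this count. The nuclear receptor NR1D2 rose (0.54, SE 0.13, adjusted p = 0.0176 in limma) and was called without each line in turn. The factor TEF fell (-0.51, SE 0.13, adjusted p = 0.025 in limma), a call lost without HepG2, SK-HEP1 or the libraries labelled Hep3b. With TGF-beta 1 of 13 rose in siSFPQ cells, ARNTL (0.57, SE 0.10, adjusted p = 0.034 in limma), a call kept only without the libraries labelled Hep3b. In siCTL cells limma called 0 of 13, of which 3 had an unadjusted p under 0.05, beside 1910 of all 12166 genes tested.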

How the data were processed

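The 9 members and the gene lists were chosen with earlier results of these data known. Per the submitters' processing notes, TopHat2 2.1.1, Cufflinks 2.2.1 and the human build hg19 were used. Annotation and settings are not given in these sources. The authors deposited a table named as raw counts whose values are FPKM: they are not whole numbers. Its 2 empty columns were not used. From its 23284 rows, 1603 of microRNAs and other short RNAs were dropped with the data known, because short length inflates their FPKM (MIR4461 took 33.6% to 51.6% of a library's sum); 21681 were kept.

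Values were tested as log2(FPKM + 1) in limma 3.58.1 (R 4.3.3) for genes reaching 1 FPKM in 6 or more of the libraries compared. Cell line was a block, eBayes was trended and robust, and p-values were adjusted by Benjamini-Hochberg across the genes tested. For the 9 members only values are given, as mean ± SD over lines. Libraries were paired by the line the labels name. The difference of responses was an interaction over 24 libraries with terms for line and for its interactions with siRNA and with TGF-beta, and 5 residual degrees of freedom remained in each fit. The fit was tested on simulated data. No 2 libraries held identical values. Depth was estimated from the steps of low FPKM values in 2023 genes with 1 transcript, assuming 180-base fragments, and served no test.

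The genes named are the 9 members, SFPQ, the 2 to 4 called genes of a list with the smallest p in the comparison described, and the 3 genes most correlated with each member; some genes this rule names are not reported here. Alternatives were other filters, pseudocounts, scaling and shrinkage, no block, and leaving out each line.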

Additional observations from a re-analysis of the deposited data

Results flagged for a closer look

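Of 81 sets of 6 values tested for a line far from the others (36 of levels and 45 of changes), 17 stood out, 14 levels and 3 changes. For normally distributed values chance marks about 1 in 20. The levels were tested as FPKM without a log, and the changes as log2 differences. Levels were skewed over the lines, as for RUNX2 in untreated siCTL cells (median 0.521 and highest 7.99 FPKM). The rate of 1 in 20 may therefore not apply to the levels. A line's level recurs in its 4 libraries, so these are not independent.

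The libraries labelled Hep3b stood above the other lines for TSC22D3 in all groups (46.5 FPKM in siSFPQ with TGF-beta, 33.4 in siSFPQ, 69.3 in siCTL with TGF-beta and 71 in siCTL) and for TSC22D1 in 3 groups (114 FPKM in siSFPQ with TGF-beta, 150 in siSFPQ and 65.5 in siCTL). RUNX2 stood high in HLE (4.43 FPKM in siSFPQ with TGF-beta, 6.32 in siCTL with TGF-beta and 7.99 in siCTL). KLF10 stood high in HepG2 with siSFPQ (86.7 FPKM with TGF-beta and 92.5 without). CITED2 stood high in untreated HLE with siSFPQ (438 FPKM), and MEX3B in untreated Huh1 with siSFPQ (4.82 FPKM).

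Among changes, HLE stood apart in the TGF-beta response of siSFPQ cells for CITED2 (-2.13) and SOX4 (2.14), and Huh7 in the knockdown without TGF-beta for RUNX1 (-0.49). The TGF-beta response of RUNX1 differed between siSFPQ and siCTL cells by 0.61. It was called among all genes in limma, but these values may have helped to choose RUNX1, so they are a description. The call was kept without HepG2 and lost without each of the other 5 lines, with no filter on low values, at pseudocount 0.1, without trend and robust shrinkage and without the line block.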

How the results depend on the processing

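Over all alternatives, 456 member values kept direction and side of the threshold, 60 fell short of it, 5 newly passed it and 17 turned direction. Without the replicate block (the cell line) no gene and no member was called in any comparison (0), a fit that holds the differences between lines as error. With no filter on low values, genes called were 0 for the TGF-beta response in siCTL cells (main 12), 15 in siSFPQ cells (610), 1152 for the knockdown without TGF-beta (2608), 2410 with it (3639) and 4 for the difference of responses (34), over more genes tested; members called were 0, 1, 0, 1 and 0. In siCTL cells the stricter filter gave 38 genes and 2 members, pseudocount 5 gave 1 and 0, and shrinkage without trend and robust steps 1 and 0. In siSFPQ cells pseudocount 5 gave 316 genes and common scaling 395. For the difference of responses pseudocount 0.1 gave 13 genes and 0 members, and shrinkage without trend and robust steps 15 and 0. The causes were not tested. Common scaling turned RUNX1 in the knockdown without TGF-beta to 0.03 and TSC22D3 in that with TGF-beta to 0.10, and pseudocount 0.1 turned that TSC22D3 value to 0.00.

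Leaving out a line gave 0 to 17 genes and 0 to 2 members in siCTL cells, 34 to 418 genes and 1 to 4 members in siSFPQ cells, 1382 to 2205 and 0 to 1 for the knockdown without TGF-beta, 2379 to 2989 and 1 to 3 with it, and 8 to 28 and 0 to 1 for the difference of responses. Member values that turned direction ranged over -0.02 to 0.13 (TSC22D1, siCTL response), -0.07 to 0.11 (TSC22D1, siSFPQ response), -0.20 to 0.07 (SOX4), -0.07 to 0.05 (RUNX1) and -0.02 to 0.32 (BHLHE40) in the knockdown without TGF-beta, -0.10 to 0.11 (TSC22D3, knockdown with TGF-beta), and -0.02 to 0.20 (KLF10) and -0.14 to 0.01 (TSC22D1) for the difference of responses. CITED2 in the knockdown without TGF-beta ranged from 0.50 to 0.78. FPKM without counts give no interval for depth. RUNX2 in Huh1 and HepG2, at most 0.0558 FPKM, lay at the limit of depth.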
